A study of Mus musculus with 20 samples.

Results

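The interferon-induced proteins with tetratricopeptide repeats are encoded in the mouse by the Ifit genes, and 4 of them, Ifit1, Ifit2, Ifit3 and Ifit3b, were followed here in liver of wild-type mice and of mice labelled as STING knockouts. The 4 genes were taken by name from the 54532 gene entries of the deposited table of FPKM, that is, fragments scaled by transcript length and by a size set for each library. Each name matched 1 entry. Polyadenylated RNA was sequenced from whole liver in 20 libraries, 5 in each of 4 groups. The groups were wild-type mice after sham surgery (Sham_Wt), STING knockout mice after sham surgery (Sham_KO), wild-type mice after bile duct ligation (BDL_Wt) and STING knockout mice after bile duct ligation (BDL_KO). Ligation of the bile duct blocks bile flow and produces cholestasis. It was kept for 7 days. The study asks what the loss of STING does to gene expression in the cholestatic liver. The sources used here do not give the strain, age or sex of the mice, the deleted part of the STING gene or the cells it was deleted in. They do not say either that each library is 1 animal, so a p-value here weighs differences against the spread of libraries.

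Ifit proteins are made when type I interferon binds its receptor and a transcription complex that includes Irf9 moves to an element in the promoters of responsive genes, the interferon-stimulated response element. Most of the proteins bind RNA or other Ifit proteins and limit the translation of foreign RNA. STING, encoded by Tmem173, relays the sensing of cytosolic DNA by the enzyme cGAS (Mb21d1) to the kinase Tbk1 and the factor Irf3, which switch on the interferon genes. Irf3 can also switch on some Ifit genes without interferon.

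The 4 genes lie together on chromosome 19 of GRCm38, all on the plus strand. Ifit2 (ENSMUSG00000045932) spans 34550694 to 34576419, Ifit3 (ENSMUSG00000074896) 34583531 to 34588731, Ifit3b (ENSMUSG00000062488) 34607970 to 34613401 and Ifit1 (ENSMUSG00000034459) 34640871 to 34650009. The Ifit-like genes Ifit1bl1 and Ifit1bl2 lie among them on the minus strand. Ch25h and Lipa flank the cluster before Ifit2, and Slc16a12 and Pank1 follow Ifit1. The promoters of Ifit1, Ifit3 and Ifit3b are shown, read from RefSeq on build GRCm38.p6, 5′ to 3′ on the plus strand and up to the annotated start of transcription. Those of Ifit2 are not printed, since they held no match to the motif marked here. Capitals mark the core of the interferon-stimulated response element, searched on both strands as GAAA, any 2 bases and GAAA, and found here on the opposite strand, so that the printed letters are its reverse complement.
Ifit1, chr19:34640639-34640870: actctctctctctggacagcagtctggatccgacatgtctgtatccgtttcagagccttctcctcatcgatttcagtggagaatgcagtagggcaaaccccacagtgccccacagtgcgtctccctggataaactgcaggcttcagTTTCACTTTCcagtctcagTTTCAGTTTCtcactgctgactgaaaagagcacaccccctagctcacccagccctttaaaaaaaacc
Ifit3, chr19:34583279-34583528: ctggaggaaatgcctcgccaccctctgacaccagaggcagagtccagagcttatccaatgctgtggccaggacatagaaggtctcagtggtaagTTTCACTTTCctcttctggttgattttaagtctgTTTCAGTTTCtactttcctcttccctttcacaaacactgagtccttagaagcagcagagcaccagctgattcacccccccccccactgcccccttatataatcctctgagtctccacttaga
Ifit3b, chr19:34607707-34607956: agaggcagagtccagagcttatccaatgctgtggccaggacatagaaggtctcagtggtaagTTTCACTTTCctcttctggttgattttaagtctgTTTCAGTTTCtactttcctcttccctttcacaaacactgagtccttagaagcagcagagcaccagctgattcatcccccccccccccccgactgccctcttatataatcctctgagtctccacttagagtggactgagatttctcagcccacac

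Each of these 3 promoters held the core 2 times. With the RefSeq start counted as 0 and the base before it as -1, the matches of Ifit1 ran from -104 to -95 and from -85 to -76. Those of Ifit3 ran from -156 to -147 and from -122 to -113, and those of Ifit3b from -188 to -179 and from -154 to -145. In windows of 300 bases around RefSeq starts, 3.44% of all 32851 windows and 3.99% of the 27025 genes with a window held the core at least once. Among 36 other genes induced by type I interferon that were listed for comparison, 27 had a window and 13 of these held it. The promoters of Ifit3 and Ifit3b are near copies, identical at 216 of 224 aligned positions, which is 96.4%. RefSeq gives Ifit2 2 starts, and neither window held the core. The window of the first of them held 1 match to TTCNNNGAA, the gamma-activated site, from -241 to -233, a motif found in 8.30% of all windows. The windows of the 4 members held no TATAAA, the form searched as the TATA box, which 13.6% of all windows did. The printed Ifit3 and Ifit3b promoters hold the letters tatataa, which that search did not cover, so no lack of a TATA box follows. The Ifit1 cores also fall in the window of the diverging neighbour Ifit1bl2, at -70 to -61 and -51 to -42 from its start. A match describes these letters only and shows no binding.

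**Figure D1:**
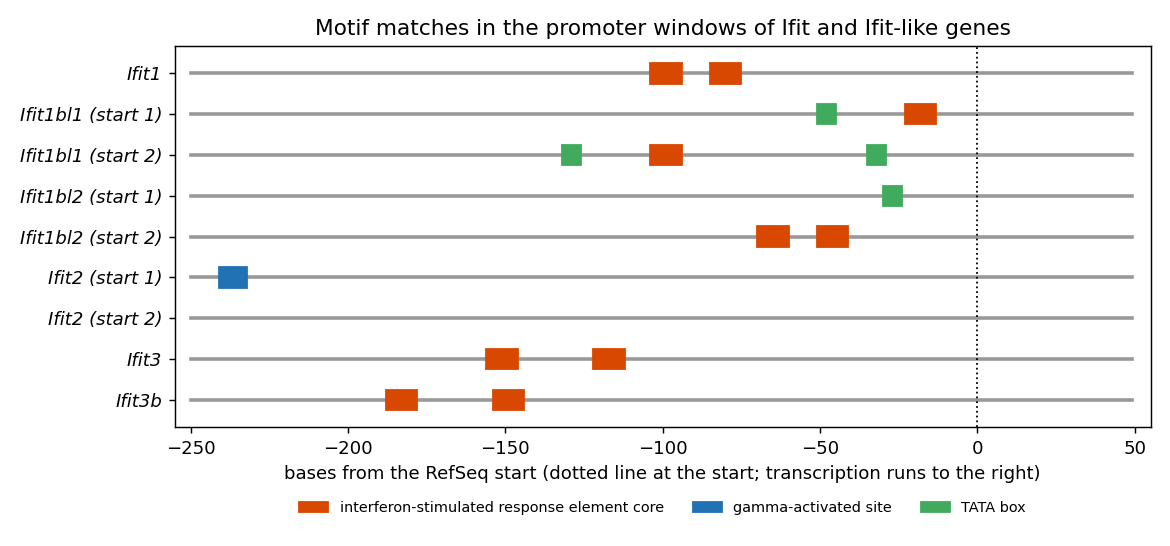
Matches to 3 motifs in the promoter windows of the Ifit genes and the Ifit-like genes; each grey line is a window around 1 RefSeq start, the x axis gives bases from that start, and coloured boxes are matches drawn to scale. Ifit1, Ifit3 and Ifit3b each hold 2 matches to the interferon-stimulated response element core upstream of the start, and the windows of Ifit2 hold none.

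Ifit3 and Ifit3b are near copies in their coding sequence too, which bears on how far their values can be told apart. The coding sequences have 1212 bases each and differ at 11, an identity of 99.1%. The stretch of 60 bases with most differences, coding bases 229 to 288 counted from the start codon, is shown with the 4 differing bases in capitals.
Ifit3: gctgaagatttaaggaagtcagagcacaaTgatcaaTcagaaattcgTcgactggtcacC
Ifit3b: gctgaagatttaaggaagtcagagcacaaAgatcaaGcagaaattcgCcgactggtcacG

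Of all stretches of 100 bases in the annotated transcripts, 31.7% of those of Ifit3 and 27.4% of those of Ifit3b occurred unchanged in the other gene. A fragment from such a stretch has no unique place, and the sources used here do not say how the authors counted it. For stretches of 50 bases, 51.2% of those of Ifit3 and 45.0% of those of Ifit3b occurred in any other gene, and for 150 bases 18.5 and 16.0%. The separate values of Ifit3 and Ifit3b are therefore uncertain to an extent that depends on this length. Ifit1 shared 3.29% of its stretches of 100 bases, with Ifit1bl2, and Ifit2 shared 0. The other pairs of members were 50.5 to 56.1% identical over their coding sequences, so Ifit1 and Ifit2 are the members with the most separable values.

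Between 14.9 and 20.9 M fragments per library were assigned to genes. The library size that the FPKM values imply was a different number. It was 13.6 M against 18.3 M assigned in BDL_KO_2248 and 21.4 M against 18.6 M in BDL_Wt_2236. The FPKM of all genes summed to 315016 in BDL_Wt_2236 and to 547332 in Sham_KO_2347, the lowest and highest sums. Of 9 hepatocyte markers 0 were absent from a whole group, and their summed level was 24586 to 64841 FPKM over the 20 libraries. For a transcript of 1 kilobase, a single fragment amounted to 0.0467 to 0.0734 FPKM. Tmem173, the targeted gene, measured 1.71 ± 0.544 FPKM in Sham_Wt, 0.743 ± 0.189 in Sham_KO, 3.64 ± 0.861 in BDL_Wt and 1.42 ± 0.762 in BDL_KO (mean ± SD, n = 5 each). It was lower in the knockout after ligation (log2 difference -1.17 ± 0.24, adjusted p = 0.00444) and differed by -0.80 ± 0.24 after sham surgery (adjusted p = 0.0779, limma). Its RNA was thus still counted in the knockout libraries, and 1 of them, BDL_KO_2370 at 2.57 FPKM, lay above the highest Sham_Wt library (2.34). Since the deleted part is not known here, its level checks the labels only in part. The libraries BDL_KO_2359 and BDL_KO_2248 stood apart from the other three of their group. Their summed FPKM of 8 cholangiocyte markers was 63.0 to 83.1 against 333 to 561 in the others, of 8 monocyte and macrophage markers 84.7 to 150 against 474 to 718, and of 9 hepatocyte markers 47698 to 64731 against 31582 to 35274. Spp1 is in both the cholangiocyte and the macrophage list and made up most of both sums after ligation in wild type (415 ± 152 FPKM in BDL_Wt, SD, n = 5). Without it the sums were 7.80 to 9.42 against 14.7 to 27.7 FPKM and 29.4 to 76.5 against 138 to 201, so the 2 libraries still stood apart. In Sham_KO these sums were 3.72 to 6.47 and 44.8 to 98.3 FPKM. The 2 libraries thus lay above Sham_KO for cholangiocyte markers and overlapped it for monocyte and macrophage markers. They also overlapped it for hepatocyte markers (50052 to 62223 in Sham_KO), and lay above it for neutrophil markers (10.2 to 10.6 against 2.30 to 3.78). The cause was not tested. Without the 2 libraries Tmem173 differed by -0.81 after ligation (adjusted p = 0.0389, limma). Main results on this group are also given without these 2 libraries.

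Values per library are given below in this order: Sham_Wt_2223, Sham_Wt_2224, Sham_Wt_2227, Sham_Wt_2228 and Sham_Wt_2229, then Sham_KO_2347, Sham_KO_2349, Sham_KO_2350, Sham_KO_2352 and Sham_KO_2353, then BDL_Wt_2233, BDL_Wt_2235, BDL_Wt_2236, BDL_Wt_2237 and BDL_Wt_2240, then BDL_KO_2359, BDL_KO_2365, BDL_KO_2248, BDL_KO_2370 and BDL_KO_2371. Ifit1, which binds capped RNA that lacks ribose methylation beside its cap, measured 11.1, 7.61, 17.2, 14.3 and 21.6 FPKM in Sham_Wt and 3.63, 5.51, 5.68, 5.55 and 3.89 in Sham_KO. It measured 62.4, 46.1, 80.4, 17.5 and 109 FPKM in BDL_Wt and 1.31, 3.67, 0.719, 4.39 and 3.75 in BDL_KO. The highest knockout library of either surgery lay below the lowest wild-type library of that surgery. Among ligated wild-type libraries, 4 lay above all sham libraries, and BDL_Wt_2237 lay inside the Sham_Wt range. The group means were 14.4 ± 5.40, 4.85 ± 1.00, 63.1 ± 34.5 and 2.77 ± 1.64 FPKM in the order of the groups above (SD, n = 5 each).

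Ifit2, which binds AU-rich RNA and has been found with the initiation factor eIF3, measured 4.71, 3.32, 4.54, 4.50 and 5.75 FPKM in Sham_Wt and 0.972, 1.74, 1.23, 1.68 and 0.761 in Sham_KO. It measured 24.9, 17.7, 24.1, 10.6 and 28.3 FPKM in BDL_Wt and 0.595, 2.72, 0.411, 3.83 and 3.29 in BDL_KO. All 5 ligated wild-type libraries lay above all sham libraries, which held for no other member. The knockout libraries again lay below the wild-type libraries of the same surgery, and BDL_KO was split, with 3 libraries above the Sham_KO range and 2 below it. The group means were 4.56 ± 0.861, 1.28 ± 0.429, 21.1 ± 7.01 and 2.17 ± 1.57 FPKM (SD, n = 5 each).

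Ifit3, whose human counterpart binds and stabilises the Ifit1 protein, measured 18.6, 15.7, 32.3, 29.1 and 33.8 FPKM in Sham_Wt and 8.95, 9.20, 10.6, 9.39 and 5.74 in Sham_KO. It measured 76.9, 51.7, 103, 23.9 and 174 FPKM in BDL_Wt and 2.37, 8.27, 1.39, 9.89 and 10.7 in BDL_KO. It had the highest mean of the 4 genes in every group, at 25.9 ± 8.24, 8.78 ± 1.81, 86.0 ± 57.4 and 6.52 ± 4.34 FPKM (SD, n = 5 each). Its levels followed the library order of Ifit1 in the ligated wild-type group, with BDL_Wt_2237 lowest, inside the sham range, and BDL_Wt_2240 highest.

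Ifit3b, the near copy of Ifit3, measured 4.28, 3.51, 6.17, 5.55 and 6.69 FPKM in Sham_Wt and 1.44, 2.02, 1.68, 2.16 and 1.15 in Sham_KO. It measured 15.5, 10.6, 22.1, 4.34 and 44.4 FPKM in BDL_Wt and 0.434, 1.19, 0.147, 2.11 and 1.49 in BDL_KO. These are the least deeply sampled values, since 0.147 FPKM in BDL_KO_2248 stands for 4 fragments and 0.434 FPKM in BDL_KO_2359 for 13. The group means were 5.24 ± 1.32, 1.69 ± 0.414, 19.4 ± 15.4 and 1.07 ± 0.795 FPKM (SD, n = 5 each).

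**Figure D2:**
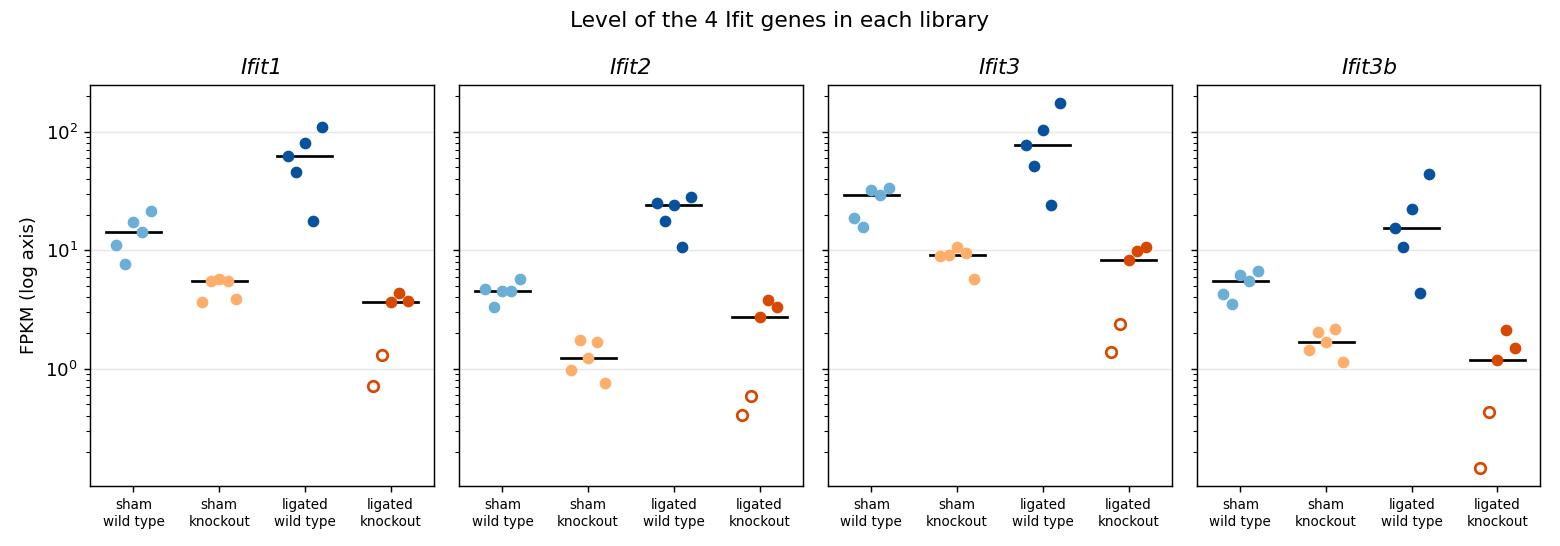
FPKM of each Ifit gene (log axis) in the 20 libraries; points are libraries, bars are group medians, and open points are BDL_KO_2359 and BDL_KO_2248. Knockout libraries lie below the wild-type libraries of the same surgery for all 4 genes, and the 2 open points are the lowest ligated knockout libraries for each.

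Per kilobase, the order of the means in Sham_Wt was Ifit3, Ifit1, Ifit3b and Ifit2, at 25.9, 14.4, 5.24 and 4.56 FPKM. The ranges of Ifit3b and Ifit2 overlapped there, and so did those of Ifit3 and Ifit1. The order was the same in Sham_KO, at 8.78, 4.85, 1.69 and 1.28 FPKM, where again Ifit3b and Ifit2 overlapped but the ranges of Ifit3 and Ifit1 did not. In BDL_Wt, Ifit2 (21.1 FPKM) and Ifit3b (19.4) again overlapped, as did Ifit3 (86.0) and Ifit1 (63.1). In BDL_KO the order was Ifit3, Ifit1, Ifit2 and Ifit3b, at 6.52, 2.77, 2.17 and 1.07 FPKM, with overlapping ranges. Within single libraries Ifit3 exceeded Ifit1 throughout, with a lowest ratio of 1.12 in BDL_Wt. The BDL_KO order held in each of its libraries, with Ifit2 to Ifit1 at 0.455 to 0.879 and Ifit2 to Ifit3b at 1.37 to 2.80. The ratio of Ifit2 to Ifit3b was 0.661 to 0.858 in Sham_KO, 0.736 to 1.10 in Sham_Wt and 0.638 to 2.45 in BDL_Wt. Set among the 14059 genes tested, Ifit1 stood above 81.9% of them by mean FPKM in Sham_Wt, 60.2% in Sham_KO, 95.8% in BDL_Wt and 45.3% in BDL_KO. The summed FPKM of the 4 genes was 50.1 ± 15.5 in Sham_Wt, 16.6 ± 3.29 in Sham_KO, 190 ± 113 in BDL_Wt and 12.5 ± 8.26 in BDL_KO (SD, n = 5 each). The sum was thus 15.1-fold higher in ligated wild-type than in ligated knockout liver, and 10.3-fold higher when the 2 libraries that stood apart were left out.

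The first comparison asks what ligation did to the Ifit genes in wild-type liver. All 4 genes rose. The ratio of mean FPKM was 4.39 for Ifit1, 4.63 for Ifit2, 3.32 for Ifit3 and 3.70 for Ifit3b. On the scale of log2(FPKM + 0.5), which understates changes of low genes, the differences ± standard error were 1.95 ± 0.43 for Ifit1 (adjusted p = 0.00175), 2.04 ± 0.37 for Ifit2 (adjusted p = 0.000364), 1.49 ± 0.50 for Ifit3 (adjusted p = 0.0251) and 1.46 ± 0.45 for Ifit3b (adjusted p = 0.0151). The test was limma across all 14059 genes with Benjamini-Hochberg adjustment and a threshold of 0.05. Of all genes tested, 18.1% were called higher in this comparison, and the median log2 difference was -0.02. Only Ifit2 separated the groups in full, as 16.6% of all genes did in the upward direction. In bulk liver, more cells that express a gene and more of its RNA per cell cannot be told apart. Markers of other cells moved with ligation too. The summed level of 8 Kupffer cell markers was 292 to 499 FPKM in Sham_Wt and 600 to 898 in BDL_Wt, and that of 8 monocyte and macrophage markers 46.7 to 97.7 and 373 to 747. Their part in the rise was not tested. Ifit3 lost its call when any of Sham_Wt_2223, Sham_Wt_2224, BDL_Wt_2236 or BDL_Wt_2240 was left out (adjusted p = 0.0562, 0.0646, 0.0641 and 0.0781, limma). The other three genes kept theirs without any single library.

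The spread among ligated wild-type libraries was wide. The highest library exceeded the lowest by 6.23-fold for Ifit1, 2.66-fold for Ifit2, 7.29-fold for Ifit3 and 10.2-fold for Ifit3b. In Sham_Wt these ratios were 1.73 to 2.84. BDL_Wt_2237 was the lowest and BDL_Wt_2240 the highest ligated wild-type library for every member. Sham_Wt held 2 libraries with Y-linked transcripts, Sham_Wt_2223 and Sham_Wt_2224, and for Ifit1, Ifit3 and Ifit3b these lay below the 3 libraries with Xist. Within libraries with Y-linked transcripts, Ifit1 was 46.1 to 80.4 FPKM after ligation (n = 3) and 7.61 to 11.1 after sham surgery (n = 2). Within libraries with Xist it was 17.5 and 109 after ligation and 14.3 to 21.6 after sham surgery (n = 3).

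The same surgery in STING knockout liver is the second comparison, and there none of the 4 genes passed the test with all libraries in the fit. The log2 differences were -0.88 ± 0.43 for Ifit1 (adjusted p = 0.145), 0.35 ± 0.37 for Ifit2 (adjusted p = 0.528), -0.70 ± 0.50 for Ifit3 (adjusted p = 0.321) and -0.63 ± 0.45 for Ifit3b (adjusted p = 0.321, limma). The unadjusted p was under 0.05 for 0 of the 4, and voom on recovered fragments called 0. Ligation still moved 25.1% of all genes tested in the knockout, in either direction. These values depend on the libraries that stood apart. Without BDL_KO_2359 and BDL_KO_2248, Ifit2 was 2.72, 3.83 and 3.29 FPKM after ligation (mean 3.28 ± 0.559, SD, n = 3), all above the Sham_KO range of 0.761 to 1.74. It was then called higher, by 1.11 ± 0.26 on the log2 scale (adjusted p = 0.0031, limma). Ifit1 (3.94 ± 0.396 FPKM), Ifit3 (9.61 ± 1.22) and Ifit3b (1.60 ± 0.470) of the same 3 libraries overlapped Sham_KO, and Ifit3 changed its sign to 0.14 (adjusted p = 0.831).

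The third comparison, knockout against wild type after sham surgery, asks for the effect of STING without cholestasis. The Ifit genes had lower values in all 5 knockout libraries than in any wild-type library, for all 4 genes, where 4.58% of all genes were separated in that direction. Mean FPKM was higher in wild type by 2.96-fold for Ifit1, 3.57-fold for Ifit2, 2.95-fold for Ifit3 and 3.10-fold for Ifit3b. In the fit across all genes, Ifit2 fell (-1.53 ± 0.37, adjusted p = 0.0327), and the values for Ifit1 (-1.41 ± 0.43, adjusted p = 0.0875), Ifit3 (-1.47 ± 0.50, adjusted p = 0.119) and Ifit3b (-1.38 ± 0.45, adjusted p = 0.106) missed the threshold. Of all genes, 1.66% were called lower. The pooled spread of this fit includes the variable ligated groups. With only the sham groups in the fit, all 4 genes were called lower, at adjusted p = 0.0113 for Ifit1, 0.001 for Ifit2, 0.00649 for Ifit3 and 0.00215 for Ifit3b (limma). That fit called more genes in general, 821 of 14059 in either direction against 418 in the fit of all groups. In the fit of all groups none of the 4 was called with TPM scaling (values scaled to the same total in each library), without the filter on low values or with voom, where Ifit2 had adjusted p = 0.0653, 0.0751 and 0.0519. The summed Kupffer cell markers had a median of 439 FPKM in Sham_Wt and 291 in Sham_KO. Among them Cd5l was 118 ± 27.8 and 45.9 ± 8.89 FPKM, while Clec4f was 71.4 ± 14.1 and 62.5 ± 10.1 (SD, n = 5 each). All 8 Kupffer cell markers had log2 differences below 0, and 1 was called lower. The part of these cells in the difference was not tested. Of the markers of plasmacytoid dendritic cells, the lectin Siglech was near 0 in both groups, at 0.104 ± 0.0619 and 0.0933 ± 0.0619 FPKM (SD, n = 5 each), and nearly all of the list's sum came from the interferon-induced gene Bst2. The exact permutation test of each gene alone gave p = 0.00794 (two-sided, unadjusted), the smallest that 5 against 5 libraries allow. It follows from the lack of overlap and adds no support of its own. It was also 0.00794 for all 4 between the ligated genotypes. For ligation the same test gave 0.0159, 0.00794, 0.0317 and 0.0317 in wild type and 0.0556, 0.492, 0.310 and 0.190 in the knockout, for Ifit1, Ifit2, Ifit3 and Ifit3b. The call of Ifit2 was lost without 7 of the 20 libraries taken singly, Sham_Wt_2223, Sham_Wt_2227, Sham_Wt_2228, Sham_Wt_2229, Sham_KO_2347, Sham_KO_2350 and Sham_KO_2353, with adjusted p up to 0.0794.

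After ligation the genotypes lay farthest apart. The mean was higher in wild type by 22.8-fold for Ifit1, 9.73-fold for Ifit2, 13.2-fold for Ifit3 and 18.1-fold for Ifit3b. All 4 genes fell in the knockout relative to wild type on the log2 scale, by -4.25 ± 0.43 for Ifit1 (adjusted p = 8.39e-06), -3.21 ± 0.37 for Ifit2 (adjusted p = 2.32e-05), -3.66 ± 0.50 for Ifit3 (adjusted p = 0.000107) and -3.47 ± 0.45 for Ifit3b (adjusted p = 6.16e-05, limma). In this comparison 5.37% of all genes were called lower, and 3.33% were separated in that direction without overlap, as all 4 members were. The median of the summed Kupffer cell markers was 779 FPKM in BDL_Wt and 557 in BDL_KO, and that of the monocyte and macrophage markers 636 and 474. Without BDL_KO_2359 and BDL_KO_2248 the knockout medians were 681 and 506. Of the 8 Kupffer cell markers 0 were called lower, with or without these libraries, and 1 with TPM scaling. Spp1 and Lyz2 made up most of the monocyte and macrophage sum, and 4 of its 8 genes were called lower (3 without the 2 libraries). Ly6c2, a marker of inflammatory monocytes, was 7.38 ± 4.15 FPKM in BDL_Wt and 0.271 ± 0.192 in BDL_KO, and the chemokine receptor Ccr2 4.06 ± 1.03 and 1.59 ± 1.21 (SD, n = 5 each). Other genes of the list differed less, such as Lyz2 (162 ± 28.5 and 118 ± 67.1), Cx3cr1 (2.67 ± 0.575 and 1.90 ± 1.53) and Trem2 (1.74 ± 0.549 and 1.05 ± 0.662). Ly6c2 also differed after sham surgery, at 1.08 ± 0.405 FPKM in Sham_Wt and 0.169 ± 0.114 in Sham_KO. The part of Kupffer cells, monocytes and macrophages in the difference was not tested. Ifit1 had the lowest log2 difference of the 14059 genes in this fit. All 4 members kept their calls without any single library. Without the 2 libraries that stood apart, the ratios of means were 16.0, 6.44, 8.95 and 12.2 in the same order, and the groups still did not overlap.

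The interaction asks whether ligation acted differently in the 2 genotypes. The differences between the ligation effects, knockout minus wild type, were -2.83 ± 0.61 for Ifit1 (adjusted p = 0.0496), -1.69 ± 0.53 for Ifit2 (adjusted p = 0.182), -2.19 ± 0.70 for Ifit3 (adjusted p = 0.194) and -2.09 ± 0.63 for Ifit3b (adjusted p = 0.168, limma). Ifit1 alone passed, and only just. Of all genes, 0.22% were called lower. Ifit1 lost the call without 17 of the 20 libraries taken singly and kept it only without BDL_Wt_2237, BDL_KO_2365 or BDL_KO_2370. Without BDL_KO_2359 and BDL_KO_2248 together its value was -2.20 (adjusted p = 0.0688, limma).

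**Figure D3:**
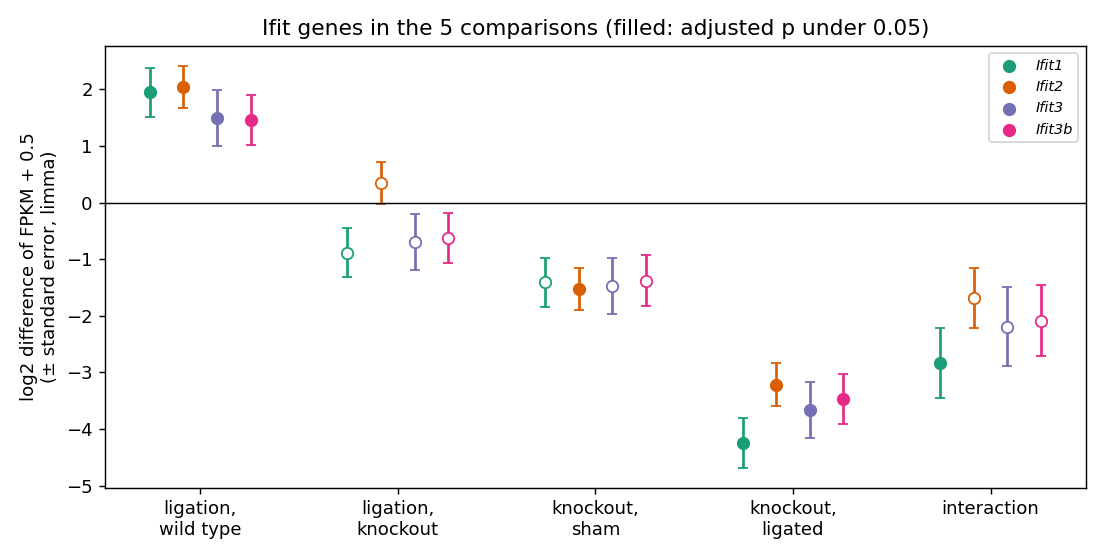
Log2 differences of the 4 Ifit genes in the 5 comparisons, on the scale of FPKM + 0.5; points are limma estimates, bars their standard errors, and filled points have an adjusted p under 0.05. All 4 are filled for ligation in wild type and for the knockout after ligation, none for ligation in the knockout, Ifit2 alone for the knockout after sham surgery and Ifit1 alone for the interaction.

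The proportions of the 4 genes were described without a test. Ifit3 held 51.6 ± 2.66% of the summed FPKM in Sham_Wt, 52.9 ± 4.46% in Sham_KO, 44.0 ± 3.11% in BDL_Wt and 51.8 ± 2.50% in BDL_KO (SD, n = 5 each). The share of Ifit1 was 28.2 ± 2.49, 29.4 ± 3.37, 33.6 ± 2.62 and 23.8 ± 3.50% in the same order. Ifit2 held the smallest shares in the sham groups, 9.52 ± 1.97% and 7.57 ± 1.48%, and larger ones after ligation, 13.0 ± 4.13% in BDL_Wt and 16.3 ± 2.38% in BDL_KO. The ratio of Ifit2 to Ifit1 FPKM was 0.264 to 0.437 in Sham_Wt, 0.196 to 0.315 in Sham_KO, 0.260 to 0.608 in BDL_Wt and 0.455 to 0.879 in BDL_KO. All ligated knockout libraries thus had a higher ratio than all sham libraries, and 3 of them, at 0.740, 0.873 and 0.879, a higher one than all ligated wild-type libraries. The lowest, BDL_KO_2359 at 0.455 against 0.437 in Sham_Wt_2224, rests on 35 Ifit2 and 52 Ifit1 fragments, and BDL_KO_2248 on 22 and 26. The place of BDL_KO_2359 above the sham libraries is therefore uncertain. The ratio of Ifit3b to Ifit3 had means of 0.207, 0.194, 0.211 and 0.157 in the order of the groups, with overlapping ranges.

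**Figure D4:**
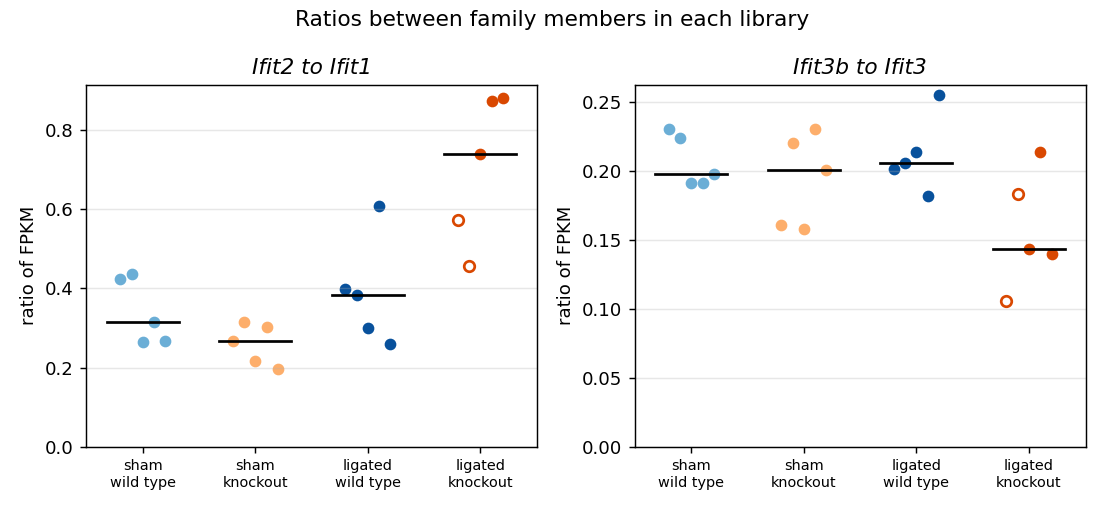
Ratios of FPKM between family members in each library, Ifit2 to Ifit1 on the left and Ifit3b to Ifit3 on the right; points are libraries, bars are medians, and open points are BDL_KO_2359 and BDL_KO_2248. The Ifit2 to Ifit1 ratio is above all sham libraries in the 5 ligated knockout libraries (0.455 to 0.879), and the Ifit3b to Ifit3 ratios of the groups overlap. The open points on the left rest on 22 to 52 fragments per gene, so the small gap below the lower of them is uncertain.

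The 4 genes varied together. Pearson's r of log2(FPKM + 0.5) over the 20 libraries was 0.936 to 0.989 between pairs of members, and 0.852 to 0.963 after the mean of each group was subtracted. The libraries share a normalisation and fall into groups, and Ifit3 and Ifit3b can share fragments, so these values are a description. Among the 14055 other tested genes, those with the highest mean r to the members were Cmpk2 (0.973), a mitochondrial nucleotide kinase, Rsad2 (0.973), which makes a chain-terminating nucleotide, Xaf1 (0.971), Isg15 (0.971), a ubiquitin-like modifier, and Trim30a (0.970). With group means subtracted the list was Cmpk2 (0.936), Rsad2 (0.933), Trim12c (0.933), Xaf1 (0.927) and Trim30a (0.925).

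The other genes of the pathway were taken from lists chosen by function and are given in the order of the pathway. Of 11 interferon ligands, which included Ifng and the lambda genes Ifnl2 and Ifnl3, 8 were listed at 0 in all 20 libraries. Ifnb1 was above 0 in 1 library (0.289 FPKM), and the summed level was at most 0.358 FPKM in any library, so no ligand was tested. Of 14 tested genes of nucleic acid sensing and its relay upstream of interferon, 12 rose, Tmem173 among them, and 1 fell with ligation in wild type. The largest were Tlr9 (1.70 ± 0.18), Zbp1 (1.68 ± 0.37), Ikbke (1.61 ± 0.25) and Tlr7 (1.24 ± 0.18). In the knockout after ligation 11 of the 14 fell and 0 rose, led by Zbp1 (-3.06 ± 0.37), Dhx58 (-2.52 ± 0.32), Tlr9 (-1.68 ± 0.18) and Ddx58 (-1.53 ± 0.19). Tmem173, the targeted gene, is 1 of those 11, and 11 of the 14 were also called lower without the 2 libraries that stood apart, Ikbke no longer among them. After sham surgery 3 fell (1 with TPM scaling), and the interaction called only Tlr9 (-1.60 ± 0.26, adjusted p = 0.0146, limma). Ligation in the knockout raised 1 of the 14 and lowered 1 with all libraries, where 25.1% of all genes were called in either direction. Without BDL_KO_2359 and BDL_KO_2248 it raised 8 and lowered 1. The cytosolic exonuclease Trex1 was listed at 0 in all libraries.

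Interferon receptors and their signalling genes formed a list of 12. The receptor chains Ifnar1 and Ifnar2 did not pass the test between genotypes after ligation (-0.14, adjusted p = 0.402, and -0.22, adjusted p = 0.107, limma). The kinase Tyk2 (-0.26) and Jak1 (-0.21) did not either. Of the complex that binds the response element, Irf9 fell in the ligated knockout by -1.41 ± 0.11 and Stat2 by -0.80 ± 0.14 (adjusted p = 1.18e-06 and 0.00107, limma). Irf7, which amplifies interferon output, fell by -2.79 ± 0.32, and Usp18, which limits receptor signalling, by -2.98 ± 0.26. In all, 7 of the 12 fell and 0 rose (6 without the 2 libraries and 9 with TPM scaling). After sham surgery 3 fell, namely Irf7 (-2.71 ± 0.32), Usp18 (-1.57 ± 0.26) and Irf9 (-0.59 ± 0.11). Ligation in wild type raised 6 of the 12 and lowered 1, and Irf7 was not among them (0.45, adjusted p = 0.30, limma). Irf9 was not called there either (0.08 ± 0.11, adjusted p = 0.632), and it fell with ligation in the knockout (-0.74 ± 0.11, adjusted p = 0.000121, limma). Ligation in the knockout raised 1 of the 12 and lowered 2, where 25.1% of all genes were called in either direction. Without the 2 libraries it raised 3, Irf7 among them (0.96, adjusted p = 0.0082, limma), and lowered 2. The interaction was -0.08 ± 0.455 for Irf7 (adjusted p = 0.966) and -0.82 ± 0.15 for Irf9 (adjusted p = 0.0322, limma), the only gene of the list that it called. With TPM scaling it called 0 of the list.

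The list of genes induced by type I interferon other than the members held 35 tested genes, with Ifih1 in common with the nucleic acid sensing list. Of these 35, 27 rose and 0 fell with ligation in wild type, with a median log2 difference of 0.95 against -0.02 over all genes. Among the largest were Rsad2 (2.20 ± 0.49), Mx1 (2.15 ± 0.29), Oasl1 (2.04 ± 0.34) and Isg15 (1.77 ± 0.48), near the 1.46 to 2.04 of the members. In the ligated knockout 34 of the 35 fell, with a median of -2.03 against 0.01, and 32 did so without BDL_KO_2359 and BDL_KO_2248. Isg15 (-3.96 ± 0.48), Rsad2 (-3.94 ± 0.49), Mx1 (-3.48 ± 0.29) and Ifi44 (-3.32 ± 0.38) led the list, beside -3.21 to -4.25 for the members. After sham surgery 16 fell (8 with TPM scaling and 26 without the 2 libraries), led by Gbp3 (-2.13 ± 0.47), Ifi44 (-1.87 ± 0.38), Oasl2 (-1.67 ± 0.31) and Oas1g (-1.60 ± 0.38), with a median of -1.04. Ligation in the knockout moved 3 of the 35, Parp12 higher and Tor3a and Rtp4 lower, where 25.1% of all genes were called in either direction. Without the 2 libraries, 9 were higher and 0 lower. Tor3a then had adjusted p = 0.0841 and Rtp4 0.158, and with TPM scaling 1 of the 35 was higher and 0 lower. The interaction called 3, and 0 with TPM scaling: Mx1 (-2.17 ± 0.41), Tor3a (-1.87 ± 0.37) and Dtx3l (-0.84 ± 0.17).

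Another list held 16 genes that respond chiefly to interferon gamma, with Socs1 in common with the signalling list. Ligation in wild type raised 4 (7 with TPM scaling and 9 without the 2 libraries), led by Gbp2 (1.47 ± 0.37), where 18.1% of all genes were called higher. In the ligated knockout 9 fell, led by Igtp (-2.74 ± 0.36), Gbp2 (-2.14 ± 0.37), Irgm1 (-2.0 ± 0.21) and Tap1 (-1.83 ± 0.25), where 5.37% of all genes were called lower. The median in the ligated knockout was -1.02 with all libraries and -0.59 without the 2 that stood apart. All 16 values lay below 0 with all libraries, and without those 2 libraries 10 lay below and 6 above 0, with 7 called lower. Enzymes that methylate or remove RNA caps, which act on the RNA ends that Ifit1 binds, formed a list with 8 tested genes. Of these, 2 rose with ligation in wild type (Dcp2 by 0.53 ± 0.11 and Cmtr2 by 0.35 ± 0.13, and 4 with TPM scaling), beside the same 18.1% of all genes. In the ligated knockout 1 fell (Dcp2, -0.65 ± 0.11, with 3 called under TPM scaling and 2 without the 2 libraries). Of 16 subunits of eIF3 and cap-binding factors, Eif3i alone was called, with -0.37 ± 0.12 for ligation in wild type, and 0 were called in the 4 other comparisons with all libraries. The direction of that list for ligation in wild type depends on the scaling, since 9 of the 16 were called higher and 0 lower with TPM.

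**Figure D5:**
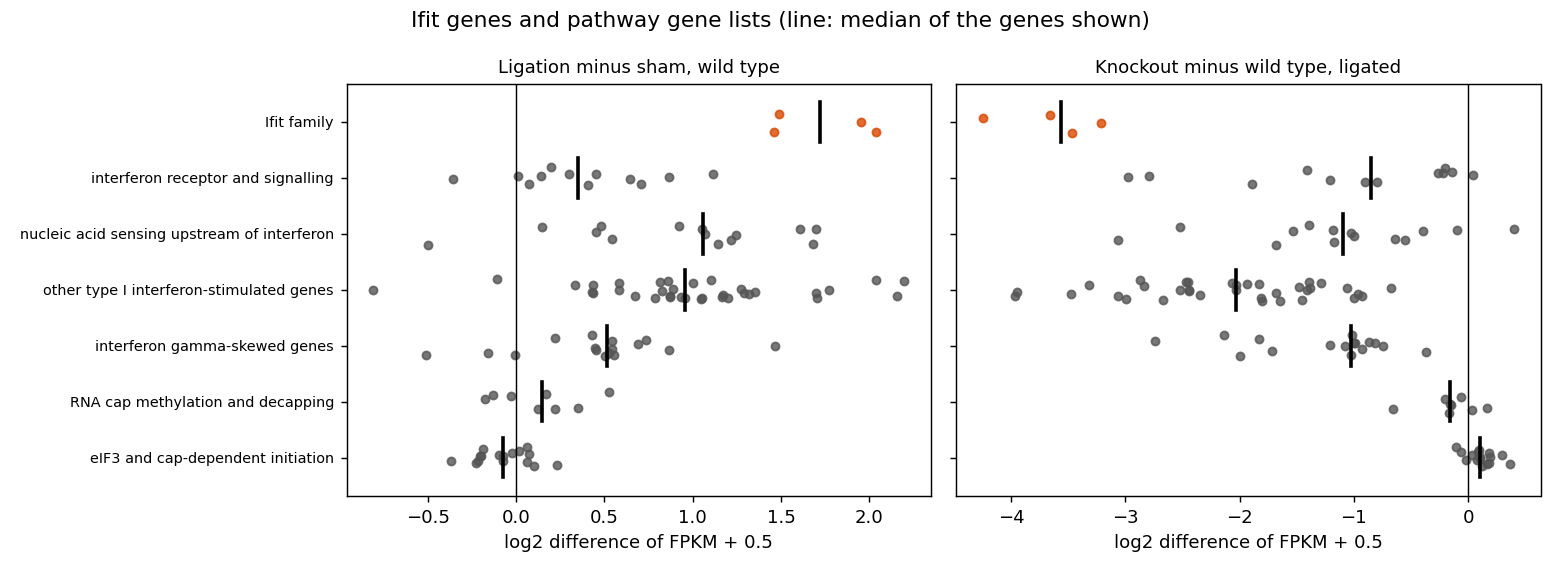
Log2 differences (FPKM + 0.5) of the Ifit genes and of 6 gene lists, for ligation in wild type on the left and for the knockout against wild type after ligation on the right; points are genes and lines medians. The Ifit genes lie at 1.46 to 2.04 on the left and -4.25 to -3.21 on the right, the other type I interferon-stimulated genes have medians of 0.95 and -2.03, and the eIF3 list lies near 0 in both.

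In the Ifit locus itself, the Ifit-like gene Ifit1bl1 measured 0.774 ± 0.131 FPKM in Sham_Wt, 0.239 ± 0.146 in Sham_KO, 2.70 ± 1.54 in BDL_Wt and 0.344 ± 0.176 in BDL_KO (SD, n = 5 each). It rose with ligation in wild type (1.21 ± 0.23, adjusted p = 0.000569) and fell in the ligated knockout (-1.83 ± 0.23, adjusted p = 6.22e-05, limma). Ifit1bl2, which diverges from the Ifit1 promoter, was at most 1.12 FPKM and was not tested. Of the flanking genes, Lipa, a lysosomal lipase, was not called in any comparison with all libraries, Pank1, which starts coenzyme A synthesis, fell with ligation in wild type (-1.19 ± 0.24, adjusted p = 0.000766), and Slc16a12 rose with ligation in the knockout (1.14 ± 0.22, adjusted p = 0.00131, limma). These flanking genes were not called between genotypes with all libraries.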

How the data were processed

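Liver polyA RNA of 20 libraries was analysed from 1 table of FPKM values that the authors deposited, with 54532 gene entries. The submitters' processing notes list HISAT2 2.0.5, fastp, CASAVA 1.8, DESeq2 1.20.0 and featureCounts 1.5.0-p3, and the build GRCm38, without their roles. The sources used here do not say how fragments with several places were counted. Groups come from the sample titles.

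With exonic lengths from GENCODE M21, 97.8 to 98.2% of low values per library were whole multiples of 1 fragment (tolerance 0.02), which gave the depths. The 14059 genes that reached 0.5 FPKM in 5 or more libraries were tested as log2(FPKM + 0.5) with limma 3.58.1 in R 4.3.3, in 1 model with 4 group means, variance trend and robust estimation, with Benjamini-Hochberg adjustment over all genes and a threshold of 0.05. The script was tested on simulated data. Python 3.11.15, pandas 2.3.3, numpy 2.4.6 and matplotlib 3.10.9 were used for the rest.

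The members and gene lists were chosen with earlier results of these data known. Named genes are the members, Tmem173, the 5 genes most like the members on each scale, and up to 4 called genes per list with the largest change; all interferon receptor and signalling genes could be named. Interferon ligands and permutation tests were added after the values were seen. The settings tried were pseudocounts of 0.1 and 1, no filter, a filter at 1 FPKM, TPM, no robust estimation, library type as a covariate, only the compared groups, voom on recovered fragments, and removal of libraries.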

Additional observations from a re-analysis of the deposited data

Results flagged for a closer look

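The effect of ligation on Ifit1 differed between the genotypes by the interaction test of limma, with -2.83 on the log2 scale (adjusted p = 0.0496). The call held under 6 of 29 alternatives, 3 of them among the 20 that leave out 1 library, and was lost with TPM scaling, with voom and without a filter on low values.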

How the results depend on the processing

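Scaling to TPM shifted the median of all genes by 0.316 for ligation in wild type, 0.176 for ligation in the knockout, -0.141 and -0.281 for the knockout after sham surgery and after ligation, and -0.14 for the interaction. The share of calls that were higher went from 50.8 to 82%, 48.8 to 75.9%, 44 to 9.52%, 39.2 to 6.73% and 41.5 to 57.1% in that order, and no Ifit gene changed direction under it. Of 596 member tests under 30 alternatives, 547 kept direction and side of the threshold, 37 lost the call, 11 gained it and 1 reversed. That was Ifit3 for ligation in the knockout without BDL_KO_2359 and BDL_KO_2248, at 0.142, where 1 member was called. With only the compared groups in the fit, 1694 genes were called for ligation in the knockout (3534 otherwise), 821 for the knockout after sham surgery (418 otherwise, with 4 members) and 283 after ligation (1241 otherwise). For the knockout after sham surgery 208 genes and 0 members were called without a filter, 210 and 0 with TPM, 0 members with voom, and 1041 genes and 4 members without the 2 libraries; leaving out 1 library gave 155 to 659 genes and 0 to 3 members. For the knockout after ligation the range was 618 to 2061 genes, with 4 members throughout. For the interaction (53 genes, 1 member), 9 genes were called without a filter, 7 with TPM, 22 with voom and 178 without the 2 libraries, with 0 members in each and also with a pseudocount of 0.1 or library type as a covariate; leaving out 1 library gave 8 to 151 genes and 0 to 2 members. Without BDL_Wt_2237, Ifit3b was called too (-2.51, adjusted p = 0.0352, limma). The cause was not tested. No paired analysis was possible because the groups share no replicate number. Ifit3b rests on as few as 4 fragments.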
